A study of Mus musculus with 9 samples.

Results

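The enterocyte genes of dietary fat and cholesterol absorption were read as 10 genes, taken by gene name from a table of 43629 mouse genes: Fabp2, Mogat2, Dgat1, Dgat2, Mttp, Apob, Apoa1, Apoa4, Apoc3 and Npc1l1. Each name matched 1 row, and all 10 were among the 15486 genes with enough reads to be tested. RNA-seq reads of epithelial cells from the mouse small intestine were counted in 9 libraries, 3 for each of 3 groups. The groups were HIF1α∆IEC and HIF2α∆IEC, labelled as lacking HIF1α or HIF2α in intestinal epithelial cells, and littermate controls labelled HIFαF/F, meaning that a HIFα gene is flanked by recombination sites without being deleted. Hif1a encodes HIF1α and Epas1 encodes HIF2α, the transcription factor subunits that accumulate when oxygen is low. All mice were labelled naïve, although the extraction text names a collagen-induced arthritis model. The labels do not give the Cre driver, the age or sex of the mice, or which floxed gene the controls carry. They also do not say that each library is a separate animal, so p-values measure the spread between libraries, which may be in part technical.

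Digested fat enters enterocytes as fatty acids and monoacylglycerol, which intracellular binding proteins carry to the endoplasmic reticulum. There monoacylglycerol and diacylglycerol acyltransferases rebuild triglyceride, and the microsomal transfer protein loads it onto apolipoprotein B to form chylomicrons, which leave through the lymph with smaller apolipoproteins on their surface. Cholesterol enters by a separate carrier at the brush border, NPC1L1. The comparisons ask whether transcripts of this route differ when epithelial HIF1α or HIF2α is lost.

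Because the groups differ by a transcription factor, the 250 bases before the start site were searched in the 6 of the 10 genes that the RefSeq promoter table (GRCm38.p6) holds: Fabp2, Apob, Mttp, Apoa1, Apoa4 and Npc1l1. The letters searched on both strands were ACGTG and GCGTG (cores that HIF can bind), AGNNCAAAGNNCA (the site AGNNCA in 2 copies with an A between them, a direct repeat read by HNF4 and PPAR factors, N being any base), TATAAA and GATAAG (read by GATA factors). None of the matches overlapped another. Mttp held GCGTG at 2 places and no other gene held either core, against 38.6% of 32851 promoter windows of the same length with at least 1 of them. Fabp2 held the direct repeat, found in 0.6% of all windows, and Apob held TATAAA (12.4%) and GATAAG (6.55%). The 3 windows with a match are shown 5′ to 3′ along the gene, with the matched letters in capitals. They are chr3:122894822-122895071 on the plus strand for Fabp2, chr12:7977427-7977676 on the plus strand for Apob and chr3:138143419-138143668 on the minus strand for Mttp.
Fabp2: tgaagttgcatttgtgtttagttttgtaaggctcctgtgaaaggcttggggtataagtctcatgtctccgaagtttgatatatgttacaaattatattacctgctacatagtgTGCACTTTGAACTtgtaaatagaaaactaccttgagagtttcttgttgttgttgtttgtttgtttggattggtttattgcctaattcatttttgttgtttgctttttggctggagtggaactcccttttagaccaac
Apob: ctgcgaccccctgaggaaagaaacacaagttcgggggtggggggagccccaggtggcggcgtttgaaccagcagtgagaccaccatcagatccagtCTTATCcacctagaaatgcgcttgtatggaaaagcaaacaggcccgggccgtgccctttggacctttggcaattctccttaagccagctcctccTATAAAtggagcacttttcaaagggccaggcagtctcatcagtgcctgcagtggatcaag
Mttp: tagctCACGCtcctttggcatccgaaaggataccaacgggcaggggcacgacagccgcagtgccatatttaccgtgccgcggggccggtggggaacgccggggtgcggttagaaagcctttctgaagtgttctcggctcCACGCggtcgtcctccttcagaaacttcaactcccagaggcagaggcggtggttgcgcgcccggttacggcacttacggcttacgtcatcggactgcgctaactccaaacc
In Fabp2 the match begins 137 bases before the start site, and in Mttp the matches begin 245 and 111 bases before it, all 3 on the strand opposite to the gene. In Apob TATAAA begins 60 bases before the RefSeq start site on the gene's strand and GATAAG 154 bases before it on the other. RefSeq start sites can differ from the gene starts given with the counts. The Apob window ends at 7977676, past that gene start at 7977648, so both Apob matches lie nearer to it than these distances. The Apoa1 and Apoa4 windows (to 46228629 and 46240843) also end past those gene starts (46228580 and 46240696). A match is a run of letters and not a bound site.

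Total counts ran from 20959964 to 40391453 per library, and the 10 genes together took between 0.734% (control replicate 2) and 1.56% (HIF2α∆IEC replicate 1) of them. The label was matched by epithelial markers: the 8 enterocyte markers, such as Vil1 and Sis, summed to 9066 to 15630 CPM (read counts relative to library size, scaled by TMM factors for library composition). Hepatocyte markers, which would mark liver as another source of apolipoprotein RNA, summed to 4.85 to 14.7 CPM, with Alb between 0 and 0.435. In 2 libraries, replicate 2 of HIF1α∆IEC and replicate 1 of HIF2α∆IEC, mitochondrial transcripts took 12.2% and 10.8% of counts, against 5.04% to 6.74% in the other 7. The deleted genes did not pass the test in their own groups. Hif1a read 22.6, 64.2 and 18.01 CPM in HIF1α∆IEC beside control values of 16.0, 19.9 and 21.1, a log2 fold change of 0.88 ± 0.46 (SE; edgeR quasi-likelihood test, adjusted p = 0.999). Epas1 read 36.1, 11.2 and 11.6 CPM in HIF2α∆IEC beside control values of 32.7, 14.5 and 21.1, a log2 fold change of -0.21 ± 0.46 (adjusted p = 1.00). Hif1a lay at 15.1 to 34.9 CPM in HIF2α∆IEC and Epas1 at 18.5 to 29.8 CPM in HIF1α∆IEC. The labels do not say which exons were deleted, and the groups are named here by label. Xist and 4 Y-linked genes placed the 3 controls and replicate 1 of each ∆IEC group as male and the other 4 libraries as female.

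Per kilobase of gene length, the control levels ran from Apoa1 at 2411 ± 738 CPM per kb (SD, n = 3) through Fabp2 at 723 ± 254, Apoa4 at 679 ± 137, Dgat1 at 272 ± 59.1, Mttp at 203 ± 59.6, Mogat2 at 203 ± 57.5, Apoc3 at 189 ± 62.4, Npc1l1 at 147 ± 32.5 and Dgat2 at 53.4 ± 15.8 to Apob at 12.3 ± 1.36. Among neighbours in this order, the 3 control values of Apoa1 lay above all those of Fabp2, those of Apoa4 above Dgat1, those of Npc1l1 above Dgat2, and those of Dgat2 above Apob. The control ranges of the other 5 neighbour pairs overlapped. Within libraries, Apoc3 was above Npc1l1 in 9 of 9, Dgat1 above Mttp in 8 of 9 and Fabp2 above Apoa4 in 7 of 9, while Mttp was above Mogat2 in 5 of 9 and Mogat2 above Apoc3 in 3 of 9. By mean CPM over the 9 libraries Apoa1 ranked 21 and Apoa4 62 of the 15486 genes tested, and Dgat2 was the lowest of the 10 at rank 1438.

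No gene of the 10 passed the test in any comparison. The edgeR quasi-likelihood test, adjusted by Benjamini-Hochberg over all genes tested, called 0 of 10 in HIF1α∆IEC against control, 0 of 10 in HIF2α∆IEC against control and 0 of 10 in HIF2α∆IEC against HIF1α∆IEC, where the share of all genes called was 0% each time. At an unadjusted p under 0.05 the count was again 0 of 10 in each, against 3.87%, 1.85% and 6.59% of all genes. DESeq2 and limma-voom also called 0 of the 10. What the libraries do show is set out by role, with both comparisons against control using the same 3 control libraries. In such bulk samples, fewer cells of a type and less RNA per cell cannot be told apart.

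**Figure D1:**
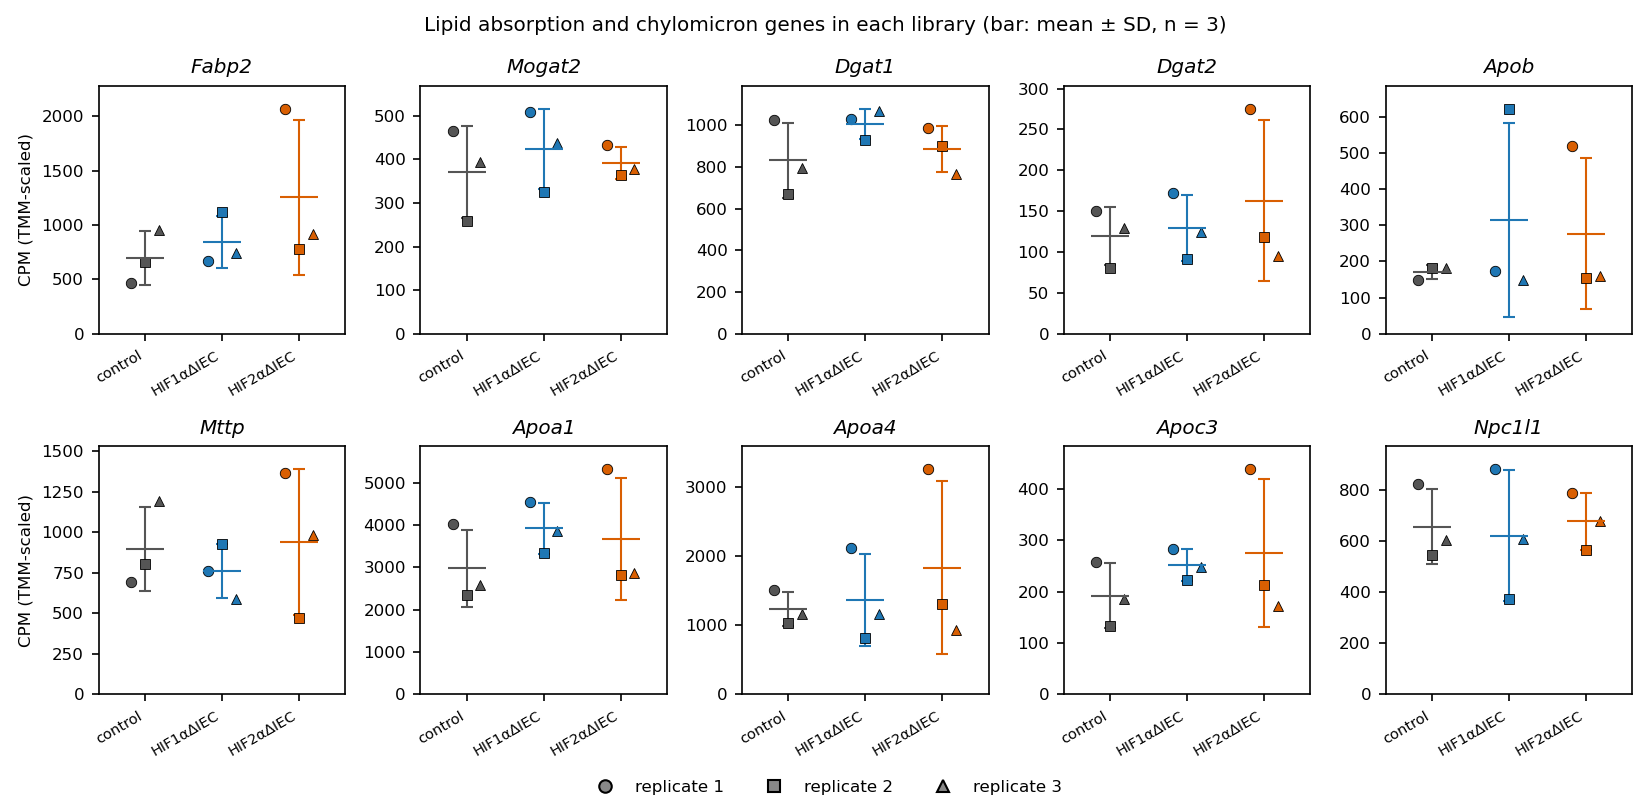
TMM-scaled CPM (vertical axis, from 0) of each of the 10 genes in the 9 libraries, by group (horizontal axis). Circles, squares and triangles are replicates 1, 2 and 3, and the bars are the mean ± SD of 3 libraries. HIF2α∆IEC replicate 1 is the highest of its group in 10 of 10 genes.

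Fabp2 (ENSMUSG00000023057, mm10 chromosome 3, 122895072 to 122899506), the intestinal fatty acid binding protein, had 471, 663 and 958 CPM in control replicates 1, 2 and 3. Its levels were 671, 1122 and 739 CPM in HIF1α∆IEC replicates 1 to 3 and 2071, 775 and 919 in HIF2α∆IEC. HIF2α∆IEC replicate 1 stood at 2.67 times the lowest of its group, while the other two lay inside the control range. The log2 fold change in HIF2α∆IEC against control was 0.85 ± 0.39 (SE, 95% interval -0.014 to 1.71, edgeR adjusted p = 1.00), the highest of the 10 genes, and 0.29 without HIF2α∆IEC replicate 1. In HIF1α∆IEC it was 0.28 ± 0.39, and -0.022 without HIF1α∆IEC replicate 2. Fabp1, the liver-type binding protein that enterocytes also make, had the same highest library at 1201 CPM, against 348 to 537 in the controls and 349 to 465 in HIF1α∆IEC. The per-kb ratio of Fabp2 to Fabp1 in that library, 0.988, lay inside the control range of 0.579 to 1.09.

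Mogat2 (ENSMUSG00000052396), the monoacylglycerol acyltransferase of the first re-esterification step, lies beside Dgat2 (ENSMUSG00000030747) on chromosome 7, at 99219084 to 99238619 and 99153663 to 99182713. Mogat2 had 465, 258 and 393 CPM in the controls, 509, 325 and 438 in HIF1α∆IEC and 433, 364 and 379 in HIF2α∆IEC. The HIF2α∆IEC libraries all lay within the control range. Its log2 fold changes against control were 0.19 ± 0.26 in HIF1α∆IEC and 0.075 ± 0.26 in HIF2α∆IEC, with 95% intervals of -0.37 to 0.75 and -0.49 to 0.64. Both turned without control replicate 2, to -0.018 and -0.13, and the first turned to -0.0030 without HIF1α∆IEC replicate 1.

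The final acylation to triglyceride is made by DGAT1 and DGAT2, enzymes of unrelated sequence. Dgat1 (ENSMUSG00000022555, chromosome 15, 76502015 to 76511951) had 1026, 670.4 and 795 CPM in the controls, 1029, 926 and 1065 in HIF1α∆IEC and 986, 898 and 768 in HIF2α∆IEC. Within HIF1α∆IEC its SD was 7.18% of the mean, the lowest of the 10 genes in that group, and the 3 groups overlapped. The fold changes of Dgat1 were 0.28 ± 0.22 and 0.090 ± 0.22 on the log2 scale, with intervals of -0.21 to 0.76 and -0.39 to 0.57, and the second turned to -0.044 without control replicate 2. Dgat2 had 149.8, 80.8 and 129.7 CPM in the controls, 172, 90.9 and 125 in HIF1α∆IEC and 276, 118 and 95.2 in HIF2α∆IEC. Only HIF2α∆IEC replicate 1 and HIF1α∆IEC replicate 1 exceeded all controls for Dgat2. Its log2 fold changes were 0.11 ± 0.40 in HIF1α∆IEC and 0.44 ± 0.40 in HIF2α∆IEC, the latter at -0.16 without HIF2α∆IEC replicate 1. The former turned to -0.19 without HIF1α∆IEC replicate 1 and to -0.11 without control replicate 2. Per kb, Dgat1 exceeded Dgat2 between 4.40-fold and 7.51-fold in 8 libraries and 2.64-fold in HIF2α∆IEC replicate 1, so the balance of the pair was lowest in that library.

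Apob (ENSMUSG00000020609, chromosome 12, 7977648 to 8016835) encodes the structural protein of the chylomicron. Apob had 149, 183 and 181 CPM in the controls. Its levels were 173, 623 and 147 CPM in HIF1α∆IEC and 519, 153 and 159 in HIF2α∆IEC. In 7 libraries the gene stayed between 147 and 183 CPM, and the 2 libraries of high mitochondrial share were the 2 above that range. Apob is a transcript of 13934 bases in the table, and the 776 tested genes over 10 kb had a median deviation from the control mean of 0.39 log2 units in HIF1α∆IEC replicate 2 and 0.23 in HIF2α∆IEC replicate 1, against -0.29 to 0.09 in the other 7. Apob itself deviated by 1.87 and 1.61, more than 98.1% and 94.5% of tested genes in those libraries. The part of transcript length or mitochondrial share in this was not tested. The fitted log2 fold changes were 0.88 ± 0.57 in HIF1α∆IEC and 0.70 ± 0.57 in HIF2α∆IEC (intervals -0.37 to 2.13 and -0.55 to 1.94). Leaving out replicate 2 of HIF1α∆IEC turned the first to -0.13, and leaving out replicate 1 of HIF2α∆IEC turned the second to -0.12.

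Mttp (ENSMUSG00000028158, chromosome 3, 138089855 to 138143388), whose promoter window held the GCGTG matches, encodes the large subunit of the lipid transfer protein that loads apolipoprotein B. It had 693, 804 and 1193 CPM in the controls, 763, 928 and 589.7 in HIF1α∆IEC and 1369.5, 470.4 and 985 in HIF2α∆IEC. HIF2α∆IEC held both the highest and the lowest Mttp level of the 9 libraries, 2.91-fold apart. The log2 fold changes were -0.24 ± 0.36 in HIF1α∆IEC and 0.070 ± 0.36 in HIF2α∆IEC, with intervals of -1.03 to 0.55 and -0.72 to 0.86. The first turned to 0.023 without control replicate 3. The second turned to -0.096 without control replicate 1, to -0.0039 without control replicate 2 and to -0.27 without HIF2α∆IEC replicate 1. Apob did not follow Mttp in HIF1α∆IEC replicate 2, where Mttp lay inside the control range. The per-kb ratio of Mttp to Apob was 4.71 there, against 13.9 to 20.9 in the controls. It was 13.9 and 12.7 in HIF1α∆IEC replicates 1 and 3, and 8.34, 9.70 and 19.6 in HIF2α∆IEC replicates 1 to 3. In HIF2α∆IEC replicate 1 both genes lay above all controls.

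Apoa1, Apoc3 and Apoa4 lie together within 14880 bases of chromosome 9, with Apoc3 on the minus strand between the other two. Apoa1 (ENSMUSG00000032083, 46228580 to 46230466), the main protein of high-density lipoprotein, also made by enterocytes, had 4024, 2339 and 2577 CPM in the controls. Its levels were 4560.5, 3349 and 3859 CPM in HIF1α∆IEC and 5334, 2819 and 2865 in HIF2α∆IEC. Control replicate 1 lay above 2 of the 3 HIF1α∆IEC libraries, so the groups overlapped. The log2 fold changes of Apoa1 were 0.40 ± 0.31 and 0.30 ± 0.31, with intervals of -0.29 to 1.08 and -0.38 to 0.99. The second was -0.049 without HIF2α∆IEC replicate 1.

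Apoa4 (ENSMUSG00000032080, 46240696 to 46243459), a chylomicron apolipoprotein made mainly by the small intestine, had 1511, 1035 and 1152 CPM in the controls, 2109, 816 and 1159 in HIF1α∆IEC and 3259, 1301 and 933 in HIF2α∆IEC. Both ∆IEC groups spanned the whole control range, each with replicate 1 above all controls and another replicate under them. Its log2 fold changes were 0.14 ± 0.45 and 0.57 ± 0.46 (intervals -0.85 to 1.14 and -0.43 to 1.57), the first at -0.36 with replicate 1 of HIF1α∆IEC left out and the second at -0.13 with replicate 1 of HIF2α∆IEC left out. Apoc3 (ENSMUSG00000032081, 46232933 to 46235636), an inhibitor of lipoprotein lipase, had 258, 132 and 185 CPM in the controls, 284, 223 and 248 in HIF1α∆IEC and 439, 213 and 171 in HIF2α∆IEC. Only replicate 1 of each ∆IEC group lay above the controls. Its log2 fold changes were 0.39 ± 0.35 and 0.52 ± 0.35 (intervals -0.37 to 1.15 and -0.25 to 1.28), the second at 0.016 without HIF2α∆IEC replicate 1. The 2 outer genes of the cluster moved less alike than Apoa1 and Apoc3: over the 9 libraries the per-kb ratio of Apoa1 to Apoc3 stayed between 9.96 and 14.5, while that of Apoa1 to Apoa4 ran from 2.40 in HIF2α∆IEC replicate 1 to 6.03 in HIF1α∆IEC replicate 2. Apoa5, a liver apolipoprotein, reached at most 0.535 CPM.

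Npc1l1 (ENSMUSG00000020447, chromosome 11, 6211013 to 6230143), the intestinal cholesterol carrier blocked by ezetimibe, had 820.2, 545 and 601 CPM in the controls. It had 882, 370.1 and 608 CPM in HIF1α∆IEC and 787, 565 and 676 in HIF2α∆IEC. All 3 HIF2α∆IEC libraries lay inside the control range, and HIF1α∆IEC held the highest and the lowest of the 9. The log2 fold changes were -0.080 ± 0.31 and 0.045 ± 0.31, the smallest in size of the 10 genes in both comparisons, with intervals of -0.75 to 0.59 and -0.63 to 0.72. Without HIF1α∆IEC replicate 2 the first was 0.16, and without control replicate 1 it was 0.078. The second was at -0.073 without control replicate 2, -0.016 without control replicate 3 and -0.057 without HIF2α∆IEC replicate 1.

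**Figure D2:**
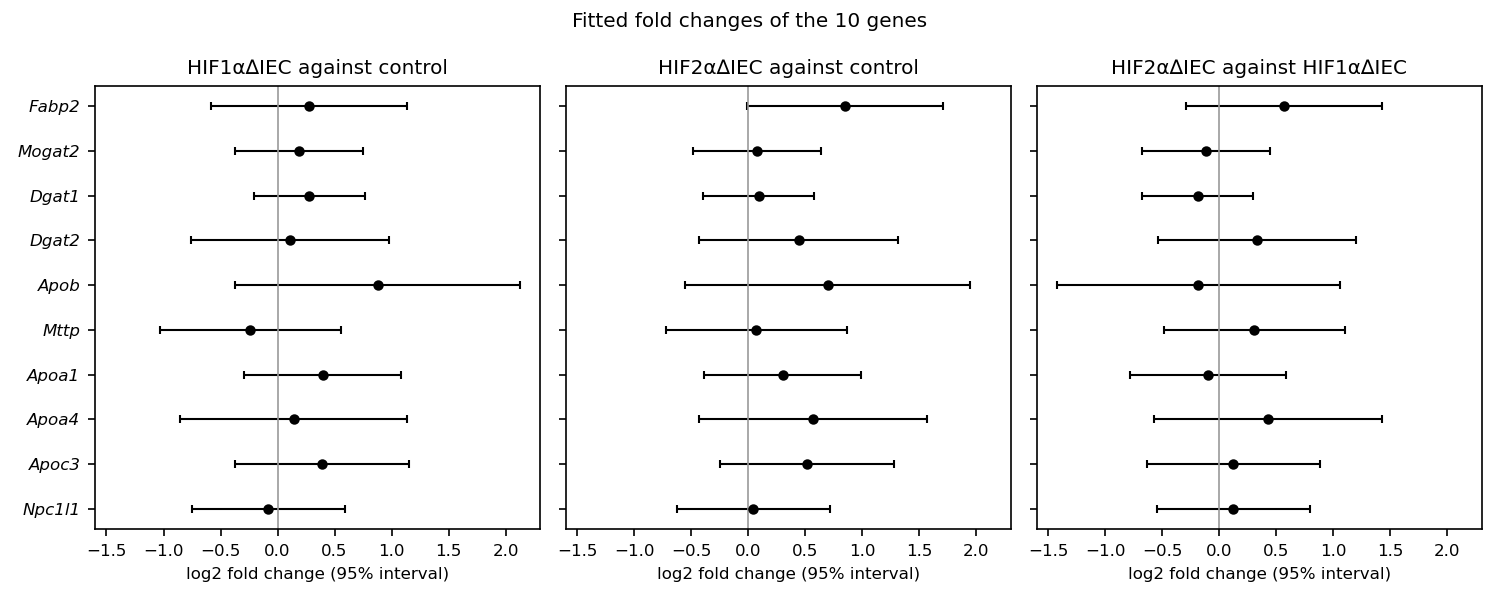
Log2 fold changes (points) of the 10 genes with 95% intervals (bars) from the edgeR fit of all 9 libraries, for the 3 comparisons. Every interval spans 0, the one nearest to leaving it out being Fabp2 in HIF2α∆IEC against control (-0.014 to 1.71).

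In HIF1α∆IEC against control, 8 of the 10 genes had a positive fold change and Mttp and Npc1l1 a negative one, with a median of 0.23 (log2), where 52.7% of all tested genes were positive and their median was 0.02. The libraries of the 2 groups were fully separated in 0 of 10 genes, against 4.6% of all genes with HIF1α∆IEC above and 3.72% with it below. HIF1α∆IEC replicate 1 exceeded all controls in 7 of the 10, and without it 5 of 10 fold changes were positive. Without HIF1α∆IEC replicate 2 the count was 7 of 10, and without control replicate 2 it was 6 of 10.

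In HIF2α∆IEC against control, 10 of 10 fold changes were positive, with a median of 0.37 against 0.01 over all genes, of which 52.9% were positive. The count was 4 to 10 of 10 with single libraries left out. HIF2α∆IEC replicate 1 had 10 of 10 genes above the control mean and 7 above every control, with a median deviation of 1.06 log2 units, while replicates 2 and 3 had medians of 0.02 and -0.05 and 0 genes above every control. Without HIF2α∆IEC replicate 1, 4 of 10 genes were positive with a median of -0.05, beside 50.7% of all genes. Without control replicate 2, the lowest control in 7 of the 10 genes, 6 of 10 were positive with a median of 0.19, and without control replicate 1 or 3 it was 9 of 10. Full separation of the groups was seen in 0 of 10 genes (3.03% of all genes above, 2.51% below).

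**Figure D3:**
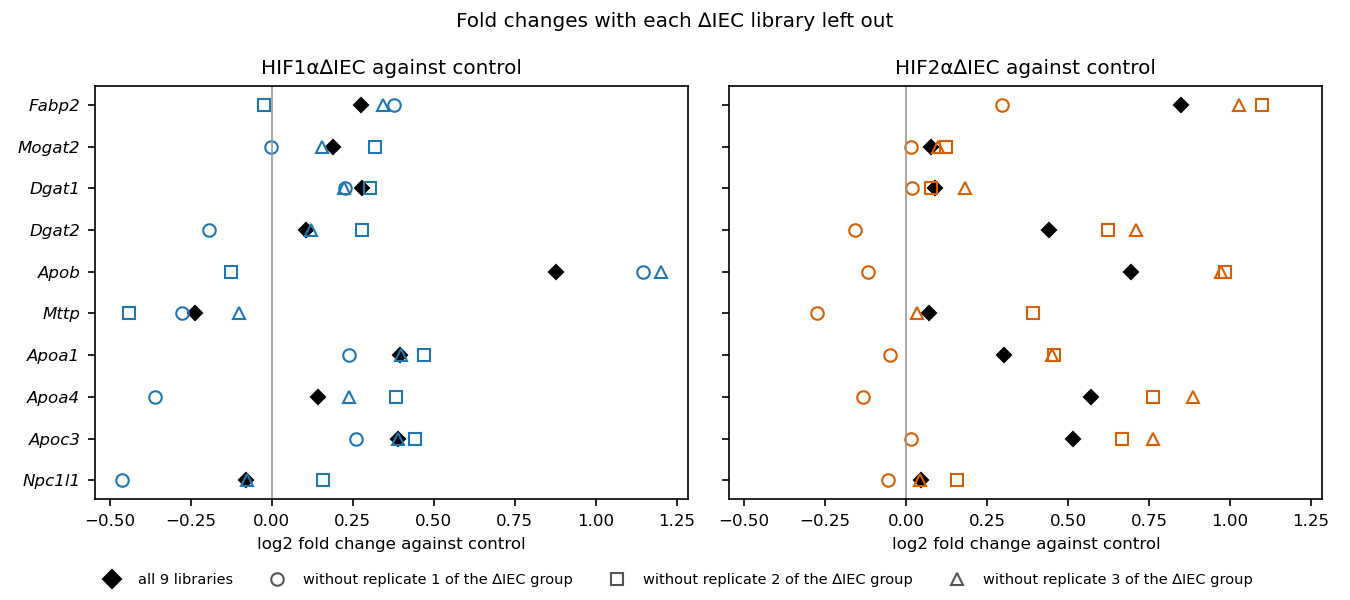
Log2 fold change against control (horizontal axis) of each gene in the fit of all 9 libraries (diamonds) and with 1 ∆IEC library left out (open symbols). In HIF2α∆IEC the values without replicate 1 lie lowest for 10 of 10 genes, between -0.27 and 0.29.

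In HIF2α∆IEC against HIF1α∆IEC directly, 6 of 10 genes were positive, with a median of 0.13 against 0.01 over all genes (51.6% positive). The values ran from -0.19 ± 0.22 for Dgat1 to 0.57 ± 0.39 for Fabp2, with edgeR adjusted p from 0.859 to 0.988. Without HIF2α∆IEC replicate 1 the count was 2 of 10, and with any other single library left out it was 6 to 8 of 10. Apob ran from -0.97 without HIF2α∆IEC replicate 1 to 0.81 without HIF1α∆IEC replicate 2. The 2 groups were separated in 0 of 10 genes (4.37% of all genes above, 6.08% below).

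HIF2α∆IEC replicate 1 also differed in its cell markers. Its T and intraepithelial lymphocyte markers (10 of 10 in the table) summed to 2993 CPM, against 340 to 482 in the controls, 428 to 702 in HIF1α∆IEC and 260 to 268 in the other two of its group, with 10 of 10 at their highest in it. Erythroid genes (5 of 5) summed to 118 CPM in it against 2.57 to 23.7 in the other 8 libraries, again with each gene at its highest. HIF2α∆IEC replicates 2 and 3, at 18.8 and 13.1 CPM, also lay above the controls (2.73 to 6.91). The erythroid sums of HIF1α∆IEC ran from 2.57 to 23.7 CPM. In 4 of the 5 erythroid genes all HIF2α∆IEC libraries were above all controls, a separation seen in 3.03% of all tested genes. It was also seen in 6 of 8 stromal, 2 of 6 goblet cell and 1 of 6 hepatocyte markers. The enterocyte sum was also highest in HIF2α∆IEC replicate 1, at 15630 CPM against 9066 to 12320 in the other 8, but the members of that list were divided. Alpi, Anpep, Krt20, Lct and Vil1 (5 of 8) were at their highest there, while Epcam and Cdh1 were at their lowest (1430.2 and 646 CPM). Paneth cell markers summed to 8219 CPM there against 15729 to 25600 in the other 8, with 5 of 6 at their lowest. Villus tip markers (Ada, Nt5e, Slc28a2, Egfr and Klf4), of which Nt5e is also made by lymphocytes, summed to 1141 CPM in it and to 549 in HIF1α∆IEC replicate 1, against 226 to 367 in the other 7 libraries. Ada made up 757 and 277 CPM of those sums, and Ada, Nt5e and Slc28a2 were at their highest in HIF2α∆IEC replicate 1. Egfr, at 14.9 and 12.4 CPM, was not above the controls (13.9 to 18.04), and Klf4 had 192 and 218 CPM beside 185 in control replicate 1. These are the 2 libraries in which 7 of the 10 lipid genes exceeded every control. They are also the only male libraries of the ∆IEC groups, so sex and library cannot be told apart for them, and the part of villus position was not tested. With sex as a term in the fit all 20 fold changes against control were positive, with medians of 0.71 in HIF1α∆IEC and 0.79 in HIF2α∆IEC, and 0 passed. The controls were all male by these transcripts, so the sex term rested on replicate 1 against the other libraries within the ∆IEC groups. Fold changes from that fit therefore lean on replicate 1 of each ∆IEC group and cannot separate sex from library.

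The segment marker lists were divided among their members. The proximal list (6 genes, of which Lct is also on the enterocyte list and Fabp1 on a lipid list) summed to 2763 CPM in HIF2α∆IEC replicate 1 and to 1193 to 1740 in the other 8 libraries. Lct, Fabp1 and Slc40a1 were at their highest there, but Gata4, at 207 CPM, was below all controls (237 to 322) and Cybrd1, at 3.46, was inside their range (2.88 to 4.31). The distal list (6 genes, such as the ileal Fabp6 and Slc10a2) summed to 460 to 817 CPM in the controls, 807 to 1312 in HIF1α∆IEC and 905 to 1177 in HIF2α∆IEC. Fabp6 and Slc51a made up most of these sums, and 0 of the 6 genes had HIF2α∆IEC above all controls. Stromal markers summed to 1.22 to 2.54 CPM in the controls, 1.96 to 8.88 in HIF1α∆IEC and 7.47 to 10.1 in HIF2α∆IEC. The part of segment or cell makeup in the lipid gene values was not tested.

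**Figure D4:**
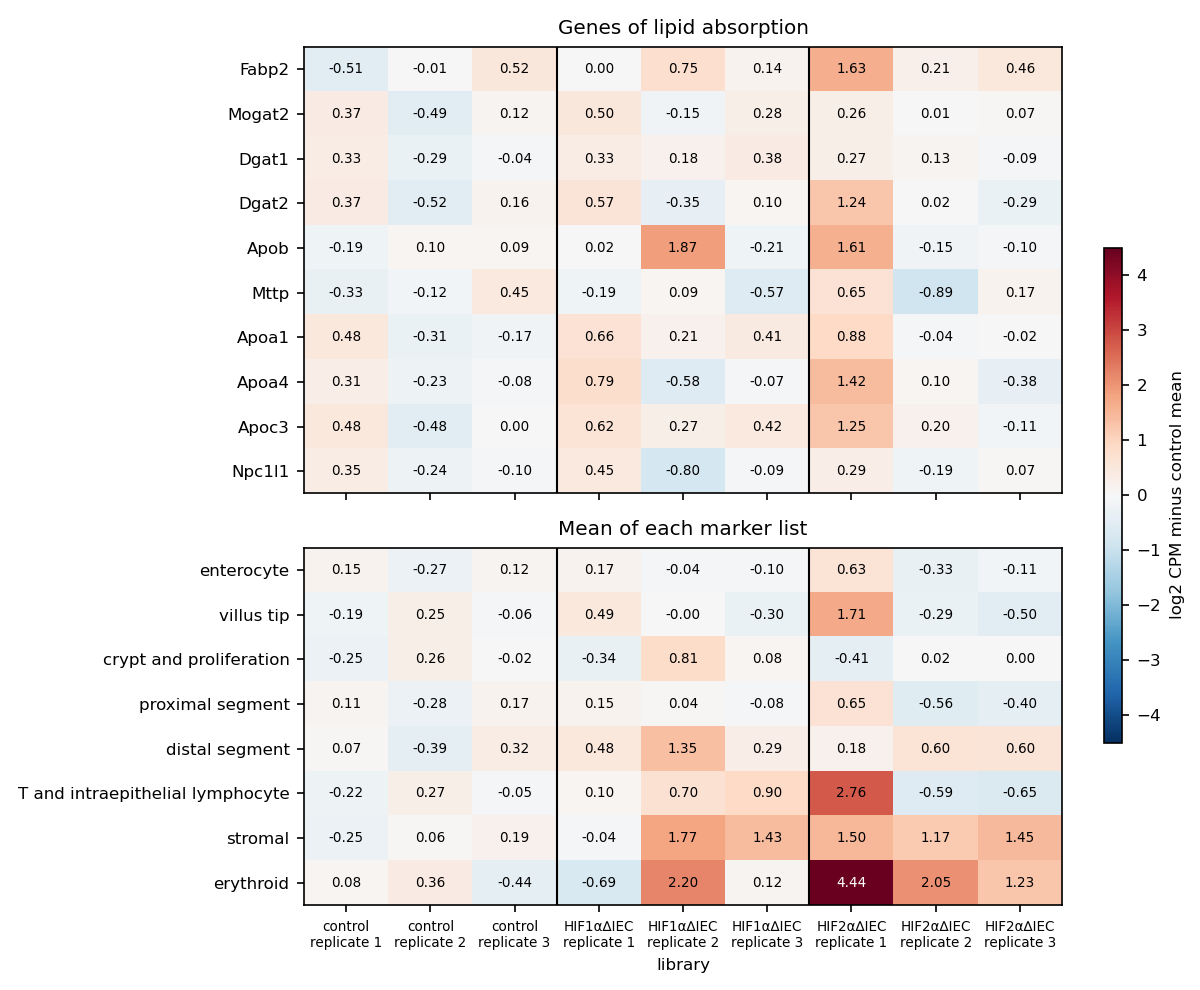
Log2 CPM minus the control mean for each of the 10 genes (upper panel) and for the mean of 8 marker lists (lower panel), by library (columns; red above, blue below the control mean). HIF2α∆IEC replicate 1 is above the control mean in all 10 genes and in the enterocyte (0.63), villus tip (1.71), lymphocyte (2.76) and erythroid (4.44) lists. The same library is also above it in the stromal, proximal segment and distal segment lists, and below it in the crypt and proliferation list.

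The wider route was read from 6 lists of 80 other genes, of which 75 were tested and Mogat1, Cidea, Fitm1, G0s2 and Apoa5 were too low. In HIF1α∆IEC against control 35 were positive and 40 negative with a median of -0.01, and edgeR called 0. Without HIF1α∆IEC replicate 2 the split was 38 to 37, and on the uptake list it went from 6 of 9 positive to 2 of 9. The assembly and secretion list also fell, from 11 of 18 to 9 of 18. Other lists rose: resynthesis from 6 of 15 to 10 of 15, sterol from 3 of 12 to 6 of 12, and transcription factors from 6 of 16 to 8 of 16. Apoe, an apolipoprotein of remnant clearance that macrophages also make, had 32.1, 32.0 and 50.1 CPM against 18.6, 24.99 and 20.4 in the controls, a log2 fold change of 0.84 ± 0.30 (unadjusted p = 0.0158, edgeR adjusted p = 0.999). It was the gene of smallest p of the assembly and secretion list, in which 11 of 18 were positive. Next on that list was Mia2, at 1.71 ± 0.83 with overlapping groups, the highest fold change of the 75 genes. Mgll, the lipase that splits monoacylglycerol, had 4.42, 2.53 and 5.24 CPM against 6.30, 5.69 and 7.36 (-0.66 ± 0.36). The HIF1α∆IEC values lay above all controls for Apoe and below them for Mgll. Over the 75 genes 1 lay above all controls and 2 below (Mgll and Sec24c, the latter named after its values were seen), and 1 had an unadjusted p under 0.05, no larger a share than over all genes. Agpat2, an acyltransferase of phosphatidic acid synthesis, was at 0.37 ± 0.25 on the resynthesis list, where 6 of 15 were positive. Dbi, which binds acyl-CoA, was at 0.32 ± 0.23 on the uptake list (6 of 9 positive), and the sterol receptor Scarb1 at -0.42 ± 0.50 on the sterol list (3 of 12). Esrra, a nuclear receptor of energy metabolism, was at 0.32 ± 0.21 among the transcription factors (6 of 16).

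In HIF2α∆IEC against control 44 of the 75 were positive and 31 negative, with a median of 0.04 and 0 called. Without HIF2α∆IEC replicate 1 it was 22 positive and 53 negative, with a median of -0.12 and 0 called. The uptake and activation genes had positive values in 9 of 9 with that library and in 3 of 9 without it, the smallest p belonging to the fatty acid transporter Cd36 (1.20 ± 0.60) and to Slc27a4, an acyl-CoA synthetase and fatty acid transport protein (0.40 ± 0.22). Slc27a4 had 796, 559 and 578 CPM in HIF2α∆IEC against 539, 392 and 537 in the controls, without overlap. Cd36 had 24.6, 6.61 and 6.96 CPM against 6.88, 4.88 and 4.82, and its fold change was 0.32 without replicate 1, where that of Slc27a4 was 0.23. Of the lipolysis genes 5 of 5 were positive (median 0.16) and 4 of 5 without that replicate, with the hormone-sensitive lipase gene Lipe at 0.30 ± 0.21. Of the resynthesis and droplet genes 6 of 15 were positive (3 without it), with the droplet coat gene Plin3 at -0.36 ± 0.27. Of the sterol genes 9 of 12 were positive (2 without it), with Gramd1b, a sterol transfer protein, at 0.74 ± 0.44 and at -0.15 without it. Of the assembly and secretion genes 10 of 18 were positive (5 without it). Apoe was at 0.76 ± 0.30 (unadjusted p = 0.0250, edgeR adjusted p = 1.00), and Sar1b, the GTPase of chylomicron export, at 0.41 ± 0.32 and at 0.12 without HIF2α∆IEC replicate 1. Over the 75 genes 1 lay above all controls (Slc27a4), 1 below (Ppara) and 1 had an unadjusted edgeR p under 0.05 (Apoe). Each was no larger a share than over all genes (3.03% above, 2.51% below and 1.85% under 0.05).

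Among transcription factors 5 of 16 were positive in HIF2α∆IEC against control, with HIF2α∆IEC replicate 1 and without it. Ppara, the fatty acid receptor that drives fat oxidation genes, had 7.53, 3.99 and 5.11 CPM in HIF2α∆IEC. The control libraries had 8.30, 8.17 and 9.41 CPM, and the HIF1α∆IEC libraries 9.13, 12.5 and 10.1. The HIF2α∆IEC libraries lay below all 6 others, HIF2α∆IEC replicate 1 included. The log2 fold changes were -0.64 ± 0.31 against control and -0.93 ± 0.31 against HIF1α∆IEC (unadjusted p = 0.0638 and 0.0119, edgeR adjusted p = 1.00 and 0.652), and -0.90 and -1.17 without HIF2α∆IEC replicate 1. Next by p against control were Gata4, at -0.28 ± 0.24, and Creb3l3, an endoplasmic reticulum factor of apolipoprotein genes in mouse, at 0.45 ± 0.43. Creb3l3 had 545 CPM in HIF2α∆IEC replicate 1 and 186 to 192 in the other two. In the direct comparison 39 of 75 were positive (30 without HIF2α∆IEC replicate 1) and 0 were called. There Pla2g12b, needed for triglyceride-rich particles in mouse, had 69.4, 66.6 and 61.0 CPM in HIF2α∆IEC against 109.7, 85.5 and 94.2 in HIF1α∆IEC (-0.55 ± 0.24, unadjusted p = 0.0400, edgeR adjusted p = 0.742). Those groups did not overlap, and the controls had 98.8, 54.1 and 65.0 CPM. Mia2 was next on the assembly and secretion list, at -1.65 ± 0.82 with overlapping groups. Of the 75 genes, HIF2α∆IEC lay fully above HIF1α∆IEC in 1 and fully below it in 4. An unadjusted edgeR p under 0.05 was seen in 2. Each was no larger a share than over all genes (4.37% above, 6.08% below and 6.59% under 0.05).

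Among 8758 other genes with a mean of at least 10 CPM, the 5 whose log2 CPM followed the mean standardised level of the 10 genes most closely over the 9 libraries were Pepd (Pearson r = 0.980), Pck1 (0.980), Cdhr5 (0.976), Cyb5r3 (0.973) and Osgin1 (0.969). These points share libraries and scaling, and the lowest r with any 1 library left out was 0.922, for Osgin1. Pck1, the cytosolic enzyme that makes phosphoenolpyruvate from oxaloacetate, had 265 CPM in HIF2α∆IEC replicate 1, 85.7 in HIF1α∆IEC replicate 1 and 23.5 in control replicate 2, its 2 highest and its lowest. Cdhr5, a cadherin that links brush border microvilli, had 1403 CPM in HIF2α∆IEC replicate 1 and 857 to 1137 in the other 8 libraries.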

How the data were processed

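The 9 libraries were made from total RNA with Illumina TruSeq reagents, per the labels. The authors deposited raw counts per gene, used here as deposited. The submitters' processing notes name CASAVA, Bowtie 0.12.2 and build mm10. What counted the reads, on which annotation and with which strand setting is not given in the sources used here. The genes that overlap Fabp2 and Apoa4 on the other strand held 0.116% and 0% of those genes' counts. The file's gene length column was used as deposited for CPM per kb.

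The tests used edgeR 4.0.16 in R 4.3.3, with filterByExpr by group and TMM scaling. All 9 libraries entered 1 quasi-likelihood fit by group (6 residual degrees of freedom), with two-sided F tests adjusted by Benjamini-Hochberg over 15486 genes and called under 0.05. SEs are the log2 fold change over the square root of F, and 95% intervals use the t distribution with 11.5 degrees of freedom. Log2 CPM used a prior count of 2. Alternatives were RLE scaling, DESeq2 1.42.0, limma-voom (limma 3.58.1), no filter, the 6 libraries compared, a replicate block, a sex term, and libraries left out. The edgeR, DESeq2 and limma-voom fits were tested on simulated counts.

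The genes, lists and alternatives were chosen with earlier results of these data known. All 10 genes are named. List genes other than Sec24c come from the 3 of smallest p of their list in a comparison, of which not all are named. Genes singled out by level, such as Fabp1 and Apoa5, the length classes, and the list counts without single libraries were chosen after their values were seen. Agpat9 and Agpat6 stand for the list symbols Gpat3 and Gpat4, by RefSeq synonyms. The lowest chi-square per gene between any 2 libraries was 16.4, so none was taken for a repeat.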

Additional observations from a re-analysis of the deposited data

How the results depend on the processing

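The 10 genes gave 0 calls in each comparison under all 17 alternatives, with a lowest adjusted p of 0.535. Over all genes, 0 calls became 2, 5 and 15 with DESeq2 (HIF1α∆IEC against control, HIF2α∆IEC against control, and HIF2α∆IEC against HIF1α∆IEC), 1, 5 and 10 with no count filter, and 1, 2 and 0 with the replicate block. The numbers gave no sign of pairing the libraries: over 9 same-numbered pairs across groups the correlation of deviations ran from -0.380 to 0.248, and 3 exceeded 0.1. Over 18 differently numbered pairs it ran from -0.260 to 0.355, and 7 exceeded 0.1. With so few pairs this cannot exclude a pairing. Calls over all genes became 1 in HIF2α∆IEC against control without both libraries that stood apart, and 0 to 1 in each comparison over the libraries left out singly. RLE scaling, limma-voom, the sex term and the fit of 6 libraries gave 0. Of 30 fold changes of the 10 genes, 7 kept their sign under every alternative. With the sex term Mttp (0.10) and Npc1l1 (0.27) turned in HIF1α∆IEC against control, and with limma-voom Mttp (-0.021) in HIF2α∆IEC against control. Without both libraries that stood apart, Fabp2 (-0.022), Apob (-0.13) and Npc1l1 (0.16) turned in HIF1α∆IEC. The same fit turned Dgat2 (-0.16), Apob (-0.12), Mttp (-0.27), Apoa1 (-0.049), Apoa4 (-0.13) and Npc1l1 (-0.057) in HIF2α∆IEC against control. In the direct comparison it turned Dgat2 (-0.44), Apob (0.011), Apoa4 (-0.51), Apoc3 (-0.42) and Npc1l1 (-0.21), and moved Mogat2 to -0.30 and Apoa1 to -0.52. With libraries left out singly, the fold changes that turned in HIF1α∆IEC against control ran from -0.022 to 0.57 (Fabp2), -0.018 to 0.34 (Mogat2), -0.19 to 0.28 (Dgat2), -0.13 to 1.20 (Apob), -0.44 to 0.023 (Mttp), -0.36 to 0.38 (Apoa4) and -0.46 to 0.16 (Npc1l1). In HIF2α∆IEC against control they ran from -0.13 to 0.26 (Mogat2), -0.044 to 0.26 (Dgat1), -0.16 to 0.71 (Dgat2), -0.12 to 0.98 (Apob), -0.27 to 0.39 (Mttp), -0.049 to 0.56 (Apoa1), -0.13 to 0.88 (Apoa4) and -0.073 to 0.23 (Npc1l1). In the direct comparison they ran from -0.24 to 0.078 (Mogat2), -0.24 to 0.62 (Dgat2), -0.97 to 0.81 (Apob), -0.0091 to 0.63 (Mttp), -0.42 to 0.060 (Apoa1), -0.25 to 0.92 (Apoa4), -0.35 to 0.37 (Apoc3) and -0.11 to 0.51 (Npc1l1). Their cause was not tested. The 10 genes had at least 1722 counts in every library, so the spread between libraries and not depth limits these values.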

Other observations

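Clps, the pancreatic cofactor colipase that lets pancreatic lipase act on fat droplets, was read as a marker of pancreatic tissue and was the one gene of that list at a high level. The control libraries held 655, 271 and 112 CPM (replicates 1 to 3). Clps stood at 651, 604 and 276 in HIF1α∆IEC and 73.5, 204 and 98.6 in HIF2α∆IEC. The HIF2α∆IEC libraries lay below all HIF1α∆IEC libraries, as in 6.08% of all tested genes, and overlapped the controls. The other genes of that list were low in all 9 libraries: Pnlip, the pancreatic lipase itself, reached at most 0.756 CPM, Prss2 at most 0.409, Cpa1 at most 0.693, Amy2a5 was at 0 and Cela1 lay between 6.52 and 17.2. Clps was singled out after these values were seen, and the source of its transcripts was not tested.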
